A study of Mus musculus with 10 samples.

Results

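Endoplasmic reticulum-associated degradation (ERAD) was followed here through 10 genes of its core machinery in bone marrow plasma cells of mice given rapamycin and of untreated mice. The genes were Syvn1, Sel1l, Derl1, Derl2, Derl3, Edem1, Edem2, Edem3, Os9 and Dnajb9, a list set by name, and each is represented by its brightest probe set that carries 1 gene symbol. All 10 were measured, among 22180 genes with such a probe set. They have 12 such probe sets, since Derl2 and Edem1 have 2 each, and 1 further probe set that names Derl2 together with another gene was left out.

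ERAD removes proteins that fail to fold in the endoplasmic reticulum (ER). Mannosidase-like proteins trim the sugar chains of a misfolded glycoprotein, lectins read the trimmed chain and hand the protein to a ubiquitin ligase complex in the ER membrane, and the protein is then pulled into the cytosol and degraded by the proteasome. Plasma cells make very large amounts of antibody in the ER, and many ERAD genes are switched on by XBP1, a transcription factor that plasma cells need for secretion, and by ATF6.

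The study used B6.BLIMP1 +/GFP mice, in which 1 allele of Blimp1 carries GFP, in both groups. The groups were 5 mice treated with rapamycin, an inhibitor of mTOR complex 1, and 5 untreated mice, with 1 Affymetrix array per mouse. RNA came from B220-negative, Blimp1-positive cells sorted from bone marrow. The labels used here state no dose, duration, age or sex. All values are deposited RMA signals on the log2 scale, so that a difference of 1 is a doubling, and group values are mean ± SD over 5 arrays. Differences are rapamycin minus untreated.

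The array medians lay between 4.92 and 4.99. All 7 plasma cell markers on the list used here, among them Sdc1, Xbp1 and Jchain, were above the median gene, with list means of 11.23 to 11.37 on rapamycin arrays and 11.17 to 11.30 on untreated arrays. Of these 7 markers 6 were above 0 in difference, 1 was below 0 and none passed the test. Prdm1, the gene of Blimp1, was at 10.12 ± 0.06 on rapamycin arrays and 9.71 ± 0.23 on untreated arrays (adjusted p = 0.117 in limma). Its groups did not overlap, as for 1.48% of all genes in the higher direction. Xist averaged 9.24 ± 0.28 on rapamycin arrays and 3.83 ± 0.10 on untreated arrays, and the Y-linked gene Eif2s3y 3.84 ± 0.24 on rapamycin arrays and 8.03 ± 0.46 on untreated arrays, so that rapamycin and sex cannot be told apart in any comparison below. Rapamycin replicate 4 stood apart on the first principal component of all genes, with a score of 22.3, against 4.17 to 8.85 for the other rapamycin arrays and -15.4 to -1.16 for the untreated arrays. Markers of neutrophils and their precursors had list means of 6.89 to 7.43 on rapamycin arrays and 6.48 to 7.25 on untreated arrays, with 0 of 10 past the test, and 9 of the 10 lay above the median gene. Of these 10 markers 9 were above 0 in difference and 1 below 0, and the mean of the list was higher with rapamycin by 0.24. The B cell list had means of 5.24 to 5.43 on rapamycin arrays and 5.20 to 5.50 on untreated arrays, with 4 of its 7 measured genes above 0 in difference, 3 below 0 and none past the test, and with the B cell factor Pax5 near the array medians (4.80 ± 0.12 on rapamycin arrays and 4.98 ± 0.07 on untreated arrays). Over all lists of other cell types, 2 of 40 measured markers passed the test, beside 0.153% of all genes. Both were higher with rapamycin and without overlap, as for 1.48% of all genes in this direction. Prg2, on the list of eosinophils, basophils and mast cells, was at 12.93 ± 0.06 on rapamycin arrays and 12.51 ± 0.21 on untreated arrays (adjusted p = 0.0473 in limma). Of the 8 genes of that list 6 lay below the median gene, and 3 were above 0 in difference and 5 below 0. Ly6c2, on the list of monocytes and macrophages, was at 11.66 ± 0.10 on rapamycin arrays and 11.22 ± 0.20 on untreated arrays (adjusted p = 0.0439 in limma). Of the 6 genes of that list 2 were above 0 in difference and 4 below 0. Cd68, above the median gene, was lower with rapamycin, at 7.84 ± 0.24 against 8.17 ± 0.09 on untreated arrays (adjusted p = 0.291 in limma). Csf1r, Adgre1, Fcgr1 and Ccr2 lay below the median gene. The part of these markers in the results was not tested.

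Most of the ERAD genes were slightly lower with rapamycin, 2 were slightly higher, and none passed the test. Differences were below 0 for 8 of the 10 genes, beside 10411 of all 22180 genes, and above 0 for Derl3 and Edem2. Among the 8, the sign changed with the choice of probe sets for Edem1 and with the arrays included for Os9. The median difference was -0.14, beside 0.01 over all genes tested and 0.02 over genes above the median signal. Without rapamycin replicate 4 the members' median was -0.10. In limma, 0 of 10 members passed a Benjamini-Hochberg adjusted p under 0.05, a threshold that 0.153% of all genes passed (28 higher and 6 lower, or 23 higher and 13 lower when quantile normalization was applied again). At an unadjusted p under 0.05, 5 members were lower, namely Syvn1, Sel1l, Derl1, Derl2 and Dnajb9, beside 3.26% of all genes, and 1 was higher, Edem2, beside 6.13% of all genes. The lower count was 3 without untreated replicate 5 (Syvn1, Sel1l and Dnajb9) and 4 without rapamycin replicate 4 (beside 3.61% of all genes), when the higher count was 2 (Derl3 and Edem2, beside 5.64% of all genes). The higher count was 0 without rapamycin replicate 5 and 0 without the intensity trend, so that the unadjusted call of Edem2 rests on these choices. In a sorted population, fewer cells of a type and less RNA per cell cannot be told apart in these values, and a shift of all transcripts is removed by the normalization.

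**Figure D1:**
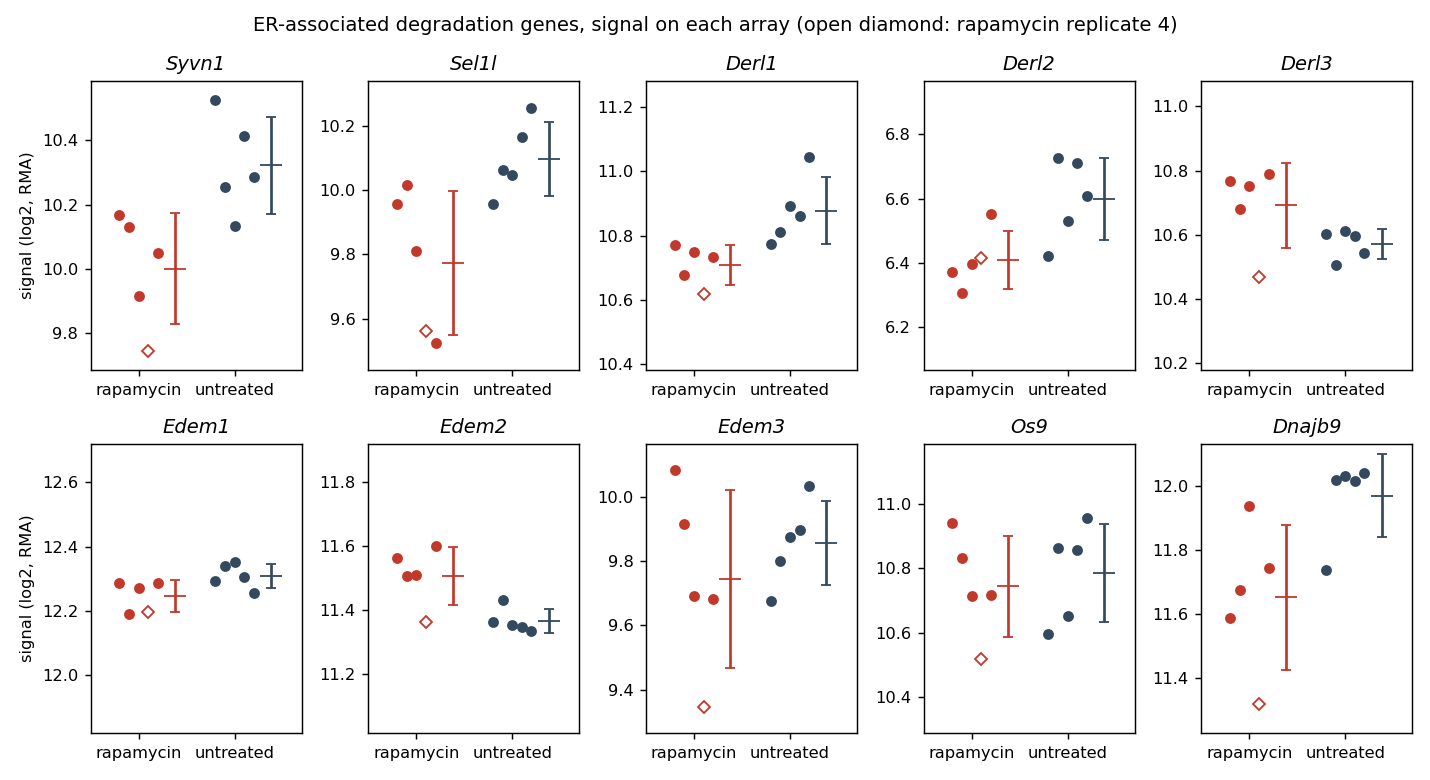
Signal (log2, RMA) of the 10 ERAD genes on each array, rapamycin left and untreated right, each axis spanning the same width; bars are mean ± SD of 5 arrays and the open diamond is rapamycin replicate 4. For Syvn1, Sel1l, Derl1, Derl2, Edem1 and Dnajb9 all 5 rapamycin arrays lie below the untreated mean, and only for Derl1 do the groups not overlap. For Derl3 and Edem2, 4 of 5 rapamycin arrays lie above every untreated array. The diamond is the lowest of the 10 arrays for 6 genes.

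Promoters of Syvn1, Derl3 and Dnajb9 are shown first, because ERAD genes are known for sequence elements through which ER stress acts on them. Those of Sel1l and Derl2, which were lower at an unadjusted p under 0.05 in limma, and of Edem2, which was higher, were searched but are not printed. The ER stress response element (ERSE) joins a CCAAT box bound by NF-Y to a CCACG part bound by ATF6 or XBP1, with 9 bases of any kind between them. RefSeq windows of GRCm38.p6, from 250 bases before to 50 bases after the transcript start, were matched for 9 of the 10 members by symbol, Derl1 being without an entry. Both strands were searched. The ERSE was found in 2 of the 9, Syvn1 and Derl3, and in 0.137% of the 27025 genes with a window. The related ERSE-II, which is ATTGG, any base and then CCACG, was in 0 of the 9 members and in 0.0444% of genes, and the UPRE sequence TGACGTGG in 0 of the 9 and in 0.714% of genes. The CCACG part, which the ERSE and ERSE-II contain, was in 9 of the 9 members and in 35.5% of genes. The 160 bases before the start are given on the gene's strand, with capitals for both fixed parts of an ERSE or for a whole ERSE-II, and, in Dnajb9, for CCACG and ACGTG. They are Syvn1 on the plus strand at chr19:6046416-6046575, Derl3 on the plus strand at chr10:75893238-75893397, Dnajb9 on the minus strand at chr12:44210069-44210228, and, for comparison outside the 10 genes, Hspa5 on the plus strand at chr2:34771930-34772089 and Herpud1 on the plus strand at chr8:94386269-94386428.
Syvn1: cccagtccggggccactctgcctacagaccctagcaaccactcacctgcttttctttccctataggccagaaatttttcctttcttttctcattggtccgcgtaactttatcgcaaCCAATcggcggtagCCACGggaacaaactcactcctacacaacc
Derl3: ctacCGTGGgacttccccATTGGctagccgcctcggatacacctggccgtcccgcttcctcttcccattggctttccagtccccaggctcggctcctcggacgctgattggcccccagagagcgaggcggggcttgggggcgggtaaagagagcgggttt
Dnajb9: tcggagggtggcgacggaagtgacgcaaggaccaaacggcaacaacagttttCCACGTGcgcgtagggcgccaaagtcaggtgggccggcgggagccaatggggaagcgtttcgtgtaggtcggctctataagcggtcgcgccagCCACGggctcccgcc
Hspa5: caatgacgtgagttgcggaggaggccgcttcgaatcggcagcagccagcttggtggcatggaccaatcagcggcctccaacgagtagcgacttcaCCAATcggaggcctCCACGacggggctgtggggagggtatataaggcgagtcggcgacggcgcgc
Herpud1: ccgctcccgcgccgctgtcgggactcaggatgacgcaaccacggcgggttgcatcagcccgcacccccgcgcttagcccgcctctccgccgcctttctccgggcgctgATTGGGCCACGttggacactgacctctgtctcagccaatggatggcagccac
In Syvn1 the ERSE ran from 44 to 26 bases before the start on the gene's strand. In Derl3 it lay from 156 to 138 bases before the start and reads on the opposite strand, so that the printed capitals are the reverse complement. Hspa5 has an ERSE from 65 to 47 bases before its start, and Herpud1 an ERSE-II from 52 to 42 bases before its start. In Dnajb9 a CCACG part overlaps 2 ACGTG cores, 1 on each strand, as also in Derl3 upstream of the printed bases. The core was in 5 of the 9 members and in 21.8% of genes.

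Syvn1 encodes HRD1, the ubiquitin ligase at the centre of the complex. Its signal was 10.17, 10.13, 9.91, 9.74 and 10.05 on rapamycin arrays 1 to 5, against 10.53, 10.25, 10.13, 10.41 and 10.29 on untreated arrays 1 to 5. Rapamycin replicates 2 to 5 lay below every untreated array, and replicate 1 was above only untreated replicate 3. The difference was -0.32 (SE 0.09, 95% interval -0.52 to -0.13, adjusted p = 0.212 in limma), which is 0.80 times the untreated level, with 5 of 5 rapamycin arrays below the untreated mean. Without rapamycin replicate 4 it was -0.26.

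Sel1l encodes the adaptor that stabilises HRD1 and docks the lectins to it. Rapamycin arrays had 9.96, 10.02, 9.81, 9.56 and 9.52, against 9.96, 10.06, 10.05, 10.17 and 10.26 on untreated arrays. Replicates 4 and 5 set the low end of the rapamycin group, while replicates 1 and 2 lay within the untreated range. Sel1l differed by -0.32 (SE 0.10, 95% interval -0.53 to -0.12, adjusted p = 0.248 in limma), close in size to Syvn1, and by -0.27 without rapamycin replicate 4.

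Derlins are membrane proteins related to rhomboid proteases, without their protease activity, that take part in moving substrates across the ER membrane next to HRD1. Derl1 was at 10.77, 10.68, 10.75, 10.62 and 10.73 on rapamycin arrays, against 10.78, 10.81, 10.89, 10.86 and 11.05 on untreated arrays. It was the member whose groups did not overlap in the lower direction, where 0.586% of all genes showed this (1.27% without rapamycin replicate 4), and the gap between the closest arrays was small. Its difference was -0.17 (SE 0.06, 95% interval -0.30 to -0.03, adjusted p = 0.39 in limma).

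Derl2 had 6.37, 6.31, 6.40, 6.42 and 6.55 on rapamycin arrays, against 6.42, 6.73, 6.53, 6.71 and 6.61 on untreated arrays. The groups overlapped, since rapamycin replicate 5 lay above 2 untreated arrays. The difference was -0.19 (SE 0.09, 95% interval -0.38 to -0.0007, adjusted p = 0.53 in limma). The brightest Derl2 probe set averaged 6.50, near the upper quartile of an array (6.51 to 6.58), and the dimmer one differed by -0.17.

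Derl3, the Derlin found mainly in secretory tissues, went the other way. Its signal was 10.77, 10.68, 10.75, 10.47 and 10.79 on rapamycin arrays, against 10.60, 10.51, 10.61, 10.60 and 10.54 on untreated arrays. Rapamycin replicate 4 was the lowest of all 10 arrays and the other 4 rapamycin arrays lay above every untreated array. The difference was 0.12 (SE 0.07, 95% interval -0.02 to 0.26, adjusted p = 0.64 in limma) and 0.18 without rapamycin replicate 4. Derl3 carries the ERSE printed above, as Syvn1 does, and whether this element bears on their differences was not tested.

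The EDEM proteins trim mannose from misfolded glycoproteins. In human and chicken cells EDEM2 starts this trimming, and EDEM1 and EDEM3 carry it on. Edem2 had 11.56, 11.51, 11.51, 11.36 and 11.60 on rapamycin arrays, against 11.36, 11.43, 11.35, 11.35 and 11.34 on untreated arrays. No member's groups were free of overlap in the higher direction, as they were for 1.48% of all genes, but as for Derl3, all rapamycin arrays except replicate 4 lay above every untreated array. The difference was 0.14 (SE 0.05, 95% interval 0.03 to 0.26, adjusted p = 0.41 in limma). It was 0.18 without rapamycin replicate 4, where the groups of both Derl3 and Edem2 did not overlap, as for 2.13% of all genes.

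Edem1 lay at 12.19 to 12.29 on rapamycin arrays and 12.26 to 12.35 on untreated arrays, the narrowest spread of the 10 genes, and differed by -0.06 (95% interval -0.15 to 0.03). Its dimmer probe set differed by 0.11, so that the mean of both differed by 0.02. Edem3 had the widest spread among rapamycin arrays, 9.35 to 10.08, against 9.68 to 10.03 on untreated arrays. Its difference was -0.11 (95% interval -0.35 to 0.13), which was -0.01 without rapamycin replicate 4 and -0.20 without rapamycin replicate 1. Os9, the lectin that passes trimmed glycoproteins to SEL1L, ranged over 10.52 to 10.94 on rapamycin arrays and 10.60 to 10.96 on untreated arrays, a difference of -0.04 (95% interval -0.22 to 0.14) that was 0.02 without rapamycin replicate 4 and -0.09 without rapamycin replicate 1. Adjusted p in limma was 0.714 for Edem1, 0.842 for Edem3 and 0.937 for Os9.

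Dnajb9 encodes ERdj4, a helper of the chaperone BiP that binds misfolded proteins for ERAD and also helps to hold the stress sensor IRE1 inactive. Its signal was 11.59, 11.67, 11.94, 11.32 and 11.74 on rapamycin arrays, against 11.74, 12.02, 12.03, 12.01 and 12.04 on untreated arrays. The untreated arrays other than replicate 1 lay close together and above all 5 rapamycin arrays, while untreated replicate 1 lay below rapamycin replicates 3 and 5. The difference was -0.32 (SE 0.09, 95% interval -0.51 to -0.12, adjusted p = 0.229 in limma). Without rapamycin replicate 4 it was -0.23, and without untreated replicate 1 it was -0.37.

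**Figure D2:**
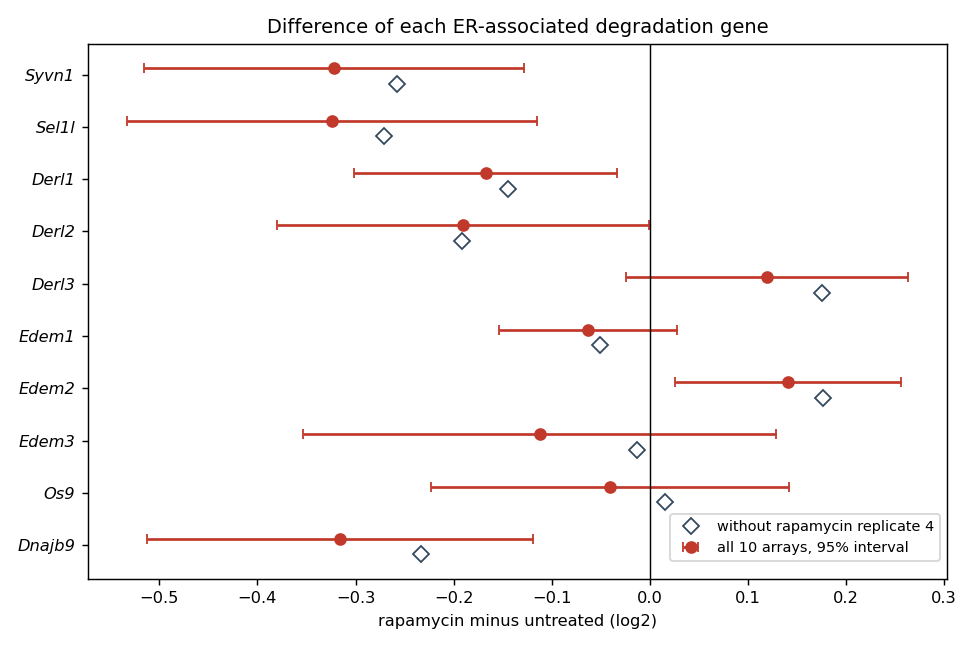
Difference of each ERAD gene between rapamycin and untreated arrays on the log2 scale; filled points and bars are estimates with 95% intervals over all 10 arrays, open diamonds the differences without rapamycin replicate 4. The intervals of Syvn1, Sel1l, Derl1, Derl2 and Dnajb9 lie below 0, that of Edem2 lies above 0, and those of Derl3, Edem1, Edem3 and Os9 include 0.

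Members of the Derlin and EDEM families were set against each other on the same array, so that a factor common to an array cancels. The 6 pairs within the 2 families were chosen after the values were seen, and were tested with two-sided exact permutation tests over the arrays, whose smallest possible p is 0.00794. Their p values describe how far the groups separate in the same arrays that led to the choice. The adjustment over the 6 pairs does not allow for that choice, so these p values are no independent support. Only the change of a ratio between the groups is read, since the level of a ratio depends on the probe sets. The ratio of Derl3 to Derl1 was higher with rapamycin by 0.29 on the log2 scale, with SDs of 0.08 over the rapamycin arrays and 0.12 over the untreated arrays (n = 5 each). Set to an untreated mean of 0, it lay between 0.16 and 0.36 on rapamycin arrays, replicate 4 included, and between -0.20 and 0.13 on untreated arrays. The exact permutation p was 0.00794, or 0.0238 after Benjamini-Hochberg adjustment over the 6 pairs.

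The ratio of Edem2 to Edem1 was higher by 0.20, with SDs of 0.06 over the rapamycin arrays and 0.04 over the untreated arrays. Its values were 0.11 to 0.26 on rapamycin arrays and -0.05 to 0.04 on untreated arrays, without overlap (exact permutation p = 0.00794, adjusted p = 0.0238). With the mean of both Edem1 probe sets the change was 0.12 (adjusted p = 0.274 by exact permutation). The ratio of Derl3 to Derl2 was higher by 0.31, with 4 of 5 rapamycin arrays above all untreated arrays (exact permutation p = 0.0238, adjusted p = 0.0476). By exact permutation this call was lost with the mean of both Derl2 probe sets (adjusted p = 0.19). It was also lost without any array except rapamycin replicate 4 (adjusted p of up to 0.0952). With 1 array fewer the smallest possible p is larger, so these losses cannot show whether the change rests on single arrays. Without each array the change of this ratio was 0.26 to 0.37. For Edem2 to Edem3 the change was 0.25, with overlapping groups (exact permutation p = 0.0873, adjusted p = 0.131). The other two ratios changed by -0.02 for Derl2 to Derl1, with values of -0.12 to 0.10 on rapamycin arrays and -0.16 to 0.19 on untreated arrays, and by -0.05 for Edem3 to Edem1 (adjusted p = 0.722 for both by exact permutation). A change of a ratio shows that the genes of a pair differed unequally, and not which of them did.

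**Figure D3:**
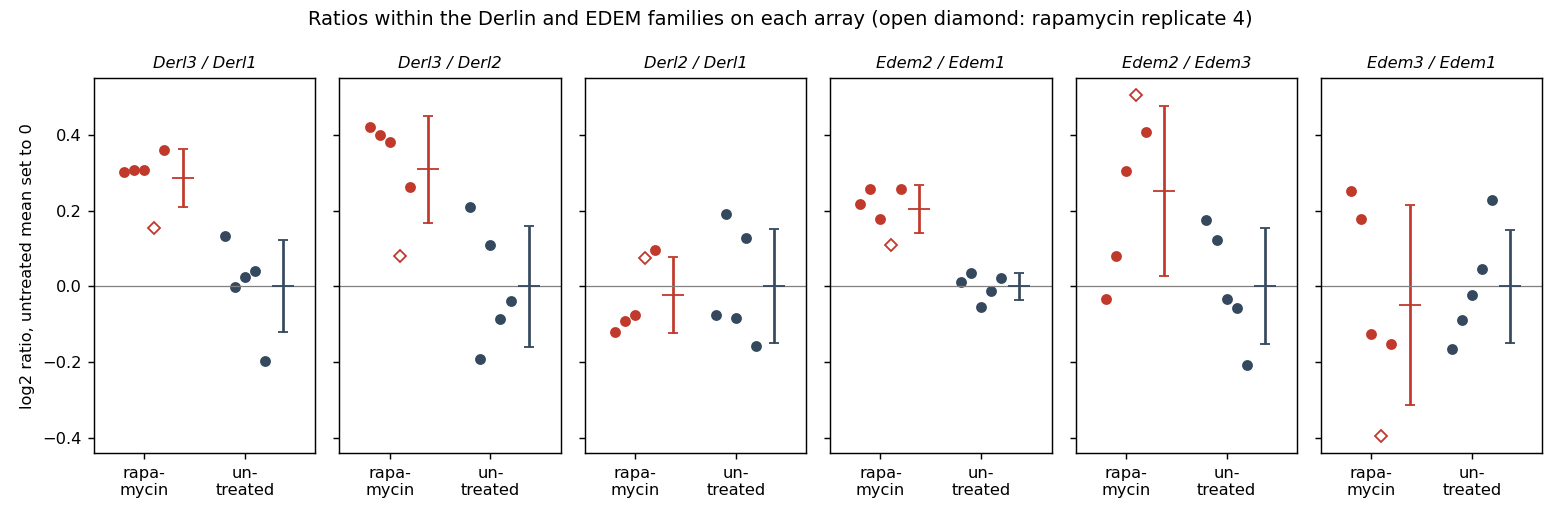
Log2 ratio of gene pairs within the Derlin and EDEM families on each array, rapamycin left and untreated right, with the untreated mean set to 0; bars are mean ± SD of 5 arrays and the open diamond is rapamycin replicate 4. The ratios of Derl3 to Derl1 and of Edem2 to Edem1 do not overlap between the groups, and the ratio of Derl2 to Derl1 overlaps fully.

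The arrays of a group also differed from each other over the whole gene list. Averaged over the 10 genes, and measured from each gene's untreated mean, rapamycin replicates 1 to 5 lay at -0.03, -0.08, -0.10, -0.32 and -0.11, against -0.08, 0.01, -0.03, 0.04 and 0.06 for untreated replicates 1 to 5. Untreated replicates 1 and 3 thus lay within the range of the rapamycin arrays. Rapamycin replicate 4 was the lowest of its group for 7 of the 10 genes, and untreated replicate 1 for 6 of 10. Rapamycin replicate 1 was the highest of its group for 5 genes, and untreated replicate 5 for 5.

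After centring each group on its own mean, the 4 genes outside the ERAD lists whose values over the 10 arrays followed the mean of the 10 ERAD genes most closely were Glyr1 (Pearson r 0.98, Spearman rho 0.88), Sec24c (0.97 and 0.94), Kars (0.97 and 0.95) and Arfgap3 (0.97 and 0.84). They were picked for this likeness among 11024 genes above the median signal, so no p is given, and the 10 points share the wide deviation of rapamycin replicate 4. Sec24c encodes a coat protein of vesicles that leave the ER, Arfgap3 a regulator of Golgi vesicle coats, Kars the lysyl-tRNA synthetase and Glyr1 a nuclear protein that binds nucleosomes. Between the groups, Sec24c differed by 0.14, Kars by 0.16, Glyr1 by -0.03 and Arfgap3 by 0.0003, none past the test (adjusted p of 0.539 to 1.00 in limma).

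In the wider pathway, 58 of 62 further listed genes were measured. Of these 58, 1 fell and 0 rose past the test, beside 0.153% of all genes that passed in either direction. Their median difference was -0.01. At an unadjusted p under 0.05 in limma, 4 were lower, beside 3.26% of all genes, and 2 were higher, beside 6.13% of all genes. The gene that fell was Hspa5, which encodes BiP, the chaperone that DNAJB9 assists. Hspa5 was at 10.89, 10.89, 10.85, 10.34 and 10.92 on rapamycin arrays, against 11.43, 11.57, 11.37, 11.65 and 11.42 on untreated arrays. The groups of Hspa5 did not overlap, as for 0.586% of all genes in the lower direction. Its difference was -0.71 (SE 0.10, adjusted p = 0.0045 in limma) and -0.60 without rapamycin replicate 4, larger than that of any of the 10 ERAD genes. Of the other lumenal chaperones and reductases, Dnajc3, an inhibitor of the stress kinase PERK, differed by -0.13 and Sdf2l1, a partner of BiP, by -0.12 (-0.07 without untreated replicate 2). This list had 1 of 6 members lower and 0 higher past the test, and a median of -0.11.

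Among 8 adaptors of the HRD1 complex 0 passed the test. Herpud1, a membrane scaffold of the complex, came closest. It was at 12.37, 12.33, 12.33, 12.25 and 12.48 on rapamycin arrays, against 12.49, 12.57, 12.57, 12.69 and 12.56 on untreated arrays. All 5 rapamycin arrays lay below all 5 untreated arrays, as for 0.586% of all genes. The difference was -0.23 (SE 0.05, adjusted p = 0.09998 in limma). Ube2j1, the ubiquitin-conjugating enzyme that works with HRD1, differed by -0.15 (adjusted p = 0.439 in limma), and Selenos, which links the complex to the ATPase p97, by 0.09 (adjusted p = 0.751), which was 0.04 without untreated replicate 1. The median of the list was -0.05.

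Among 7 further lectins and mannosidases 0 passed the test, with a median of 0.01. Erlec1, a lectin of the same family as Os9, differed by 0.15, Man1a2 by 0.16 and Man1a by -0.18 (-0.10 without rapamycin replicate 4), the last 2 encoding mannosidases. Ligases and conjugating enzymes of other branches had 0 of 9 past the test and a median of 0.01. Trim13, a ligase gene near the array medians with 5.14 ± 0.18 on rapamycin arrays and 4.83 ± 0.19 on untreated arrays, differed by 0.31, Ube2g1 by 0.13 and Rnf5 by 0.10. Without untreated replicate 1 the difference of Ube2g1 was 0.08 and that of Rnf5 0.04, and without untreated replicate 5 that of Rnf5 was 0.17. Genes for extraction and cytosolic handling had 0 of 15 past the test and a median of -0.02, with Vcp, which encodes p97, at -0.12, Bag6, a holdase for extracted proteins, at 0.14 and the p97 cofactor Faf1 at 0.14. The membrane branches had 0 of 6 past the test, with Hm13, which encodes signal peptide peptidase, at -0.11 (-0.07 without rapamycin replicate 4), Erlin1 at 0.08 and Tmub1 at 0.04. Leaving out 1 array gave -0.20 to -0.05 for Vcp (without untreated replicates 1 and 5), 0.01 to 0.15 for Erlin1 (also without untreated replicates 1 and 5) and 0.01 to 0.09 for Tmub1 (without untreated replicates 2 and 4). The difference of Bag6 was 0.08 without untreated replicate 3. Of the 22 named genes of the wider pathway, 13 moved by over 1.5 times when 1 array was left out, and none changed sign.

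Regulators upstream of ERAD genes had 0 of 7 past the test and a median of -0.0007. Xbp1 was at 12.27 ± 0.03 on rapamycin arrays and 12.25 ± 0.02 on untreated arrays, a difference of 0.02 (95% interval -0.06 to 0.11, adjusted p = 0.927 in limma) that was -0.02 with quantile normalization applied again. Spliced and unspliced Xbp1 were not told apart here. Ern1, which encodes the sensor IRE1 that splices Xbp1, differed by -0.16, Atf6b by 0.21 and Mbtps2, a protease that releases ATF6, by 0.24. Without untreated replicate 5 the difference of Ern1 was -0.10 and that of Atf6b 0.32, and leaving out 1 array gave 0.01 to 0.03 for Xbp1 (without rapamycin replicates 2 and 4). Adjusted p of these 3 genes in limma lay between 0.574 and 0.688.

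**Figure D4:**
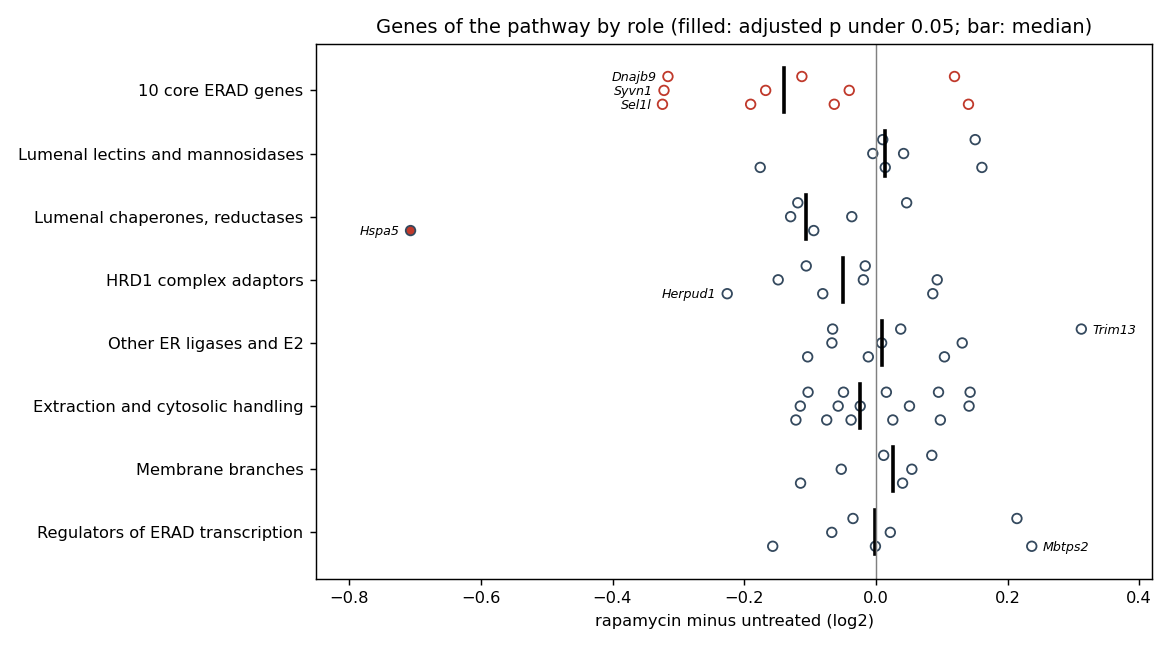
Differences of the 10 core ERAD genes and of 58 further genes of the pathway by role, rapamycin minus untreated on the log2 scale; each point is a gene, black bars are list medians and filled points passed an adjusted p under 0.05. Hspa5 is the filled point, at -0.71, and the list medians run from -0.14 for the core genes to 0.03 for the membrane branches.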

How the data were processed

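Transcripts of sorted bone marrow plasma cells from 5 rapamycin-treated and 5 untreated mice were measured on 10 arrays, grouped by the sample titles. The authors deposited log2 values processed by RMA, as the submitters' processing notes record without a version. A second table deposited by the authors holds a filtered subset of 12280 of the 41345 rows, 5 of them probe sets of the 10 ERAD genes, and served as an alternative. The number of arrays limits the precision.

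Gene names came from the platform's annotation (1 symbol for 23521, several for 1820, unnamed here 16004), and the brightest probe set stood for a gene. All 22180 genes were fitted with limma 3.58.1 in R 4.3.3 (lmFit, eBayes with an intensity trend, two-sided, no covariate, no filter), with Benjamini-Hochberg adjustment over all of them; the fit was tested on simulated data. Standard errors and 95% intervals are its moderated ones. Exact permutation tests used scipy 1.17.1. Promoter sequences are from RefSeq, GRCm38.p6.

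The members, gene lists and tests were chosen with earlier results of these data known. Named were the 10 genes, up to 3 genes with the smallest p of each other list, Hspa5, Herpud1, Vcp and Xbp1, and the 4 genes most like the members. Alternatives were a replicate block, no intensity trend, array weights, other choices of probe sets, a filter on dim genes, the filtered table, other normalizations, a threshold of 0.1 and leaving out each array. No label gives a batch, so none could be tested.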

Additional observations from a re-analysis of the deposited data

Results flagged for a closer look

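A single array lay far from the other 4 of its group, by Dixon's ratio of the gap to the range, in 4 of the 64 groups of values examined for the 10 ERAD genes and 22 named genes of the wider pathway, where chance gives about 5%. Of these, 2 lay among the 20 groups of the ERAD genes. Dnajb9 was at 11.74 on untreated replicate 1, with the next untreated array at 12.01. Edem2 was at 11.43 on untreated replicate 2, with the next at 11.36. On rapamycin replicate 4, Hspa5 was at 10.34, with the next rapamycin array at 10.85, and Man1a2 at 8.62, with the next at 8.96.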

How the results depend on the processing

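In limma, 0 of the 10 ERAD genes passed in either direction under any of the 20 alternatives; the filtered table holds only 5 of them. Their median difference was -0.32 in that table, which lacks 5 genes, and -0.18 to -0.10 without each array. Of 95 differences of single members under the other settings 94 kept their sign and side of the threshold. The exception was Edem1, at 0.024 with the mean of probe sets, whose second probe set is dimmer. Without each array, 98 of 100 did so, with Os9 ranging from -0.089 to 0.016. Among named pathway genes, 204 of 206 did so, the exceptions being Xbp1, at -0.016 with quantile normalization applied again, and Herpud1, which passed at the threshold of 0.1 (adjusted p = 0.09998) and had an adjusted p of 0.0603 to 0.29 under the other alternatives. Without each array, 220 of 220 did so. Without each array, the change of the ratio of Derl2 to Derl1 ranged from -0.063 to 0.025 and that of Edem3 to Edem1 from -0.124 to 0.038. Hspa5 passed under all 20 alternatives, with an adjusted p of up to 0.0363.

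Over all genes, higher calls numbered 14 with the replicate block, 57 among genes above the median signal, 71 in the filtered table, 68 at an adjusted p under 0.1, and 15 to 30 without each array, the lowest without rapamycin replicate 1 or untreated replicate 3. Lower calls numbered 12 with array weights, 13 among genes above the median signal, 36 in the filtered table, 13 with quantile normalization applied again, 24 at an adjusted p under 0.1, and 4 to 9 without each array. Apart from the changed threshold, the cause of these differing counts was not tested. Same-numbered arrays share only a number: their deviations from the group means correlated at -0.07 to 0.05, and 1 of 5 correlated best with its own number. The replicate block changed no call of a member. With 5 arrays a group, the 95% intervals of the members' differences reached 0.09 to 0.24 to either side, before any adjustment over genes.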
